A study of Homo sapiens with 8 samples.

Results

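The AP-1 and immediate early genes described here are *FOS*, *FOSL1*, *FOSL2*, *JUN*, *JUNB*, *EGR1*, *ATF3*, *IER3*, *DUSP1* and *KLF6*, 10 of the 25702 genes in the count tables, found by matching their symbols to NCBI gene numbers. They were measured by RNA-seq in SUIT2, a human PDA cell line derived from a liver metastasis, in 8 libraries. Of these, 4 are labelled shScr and carry a scramble shRNA (shScr_1 to shScr_4), and 4 carry 1 of 2 shRNA constructs against *EN1*, named here shEn1_1 (shEn1_1.1 and shEn1_1.2) and shEn1_2 (shEn1_2.1 and shEn1_2.2) after the titles. All cells received an shRNA by lentivirus and were trypsinized before lysis, no library of untransduced cells is included, and nothing in the labels says that the libraries come from separate cultures, so the p-values measure the spread between these libraries, which may be technical. Levels are given as CPM, each count divided by the TMM-scaled size of its library. Library totals lay between 33423590 and 37810604 counts, and each of the 10 genes passed the filter on low counts, as did 14333 genes in all.

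The label shEn1 was checked against the targeted gene first. *EN1*, a homeobox transcription factor, had 4.10, 4.50, 4.94 and 2.51 CPM in shScr_1 to shScr_4, 5.77 and 5.41 CPM in shEn1_1.1 and shEn1_1.2, and 1.35 and 6.70 CPM in shEn1_2.1 and shEn1_2.2. Its mean was 4.01 ± 1.06 CPM for the shScr label and 4.81 ± 2.37 CPM for the shEn1 label (SD, n = 4 each), and 3 of the 4 libraries labelled shEn1 lay above the shScr mean. The targeted gene therefore goes against the label in 3 libraries, and each direction below is one between the libraries labelled shEn1 and those labelled shScr. The libraries shScr_4 and shEn1_2.1, 1 from each arm, stood apart from the rest. They were nearest to each other of all pairs over the tested genes (root mean square difference of 0.395 in log2 CPM), and shEn1_2.1 and shScr_1 were the farthest apart (0.841). For some of the ranges and differences that rest on these libraries, the value without them follows. Others are given for all 8 libraries only.

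AP-1 is a dimer of a Jun protein with a Fos, Jun or ATF protein, which binds short TGA-rich sites in promoters and enhancers. Immediate early genes are induced within minutes of a growth factor, stress or serum signal without new protein synthesis, mostly through the ERK, JNK and p38 kinases acting on SRF, its ELK partners and CREB, and most of their mRNAs decay quickly. *FOS* and *EGR1* are the classic transient members, whereas *FOSL1*, which encodes FRA1, is kept up by sustained RAS and ERK signalling in carcinoma cells. *DUSP1*, a phosphatase that switches MAP kinases off, is itself such a gene and acts as negative feedback.

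The Fos family mRNA of these cells was almost all *FOSL1*. *FOSL1* (Entrez 8061, chromosome 11 of GRCh37, 65659520 to 65668044, minus strand) had 1043, 741, 489 and 729.7 CPM in shScr_1 to shScr_4, 644 and 1084 CPM in shEn1_1.1 and shEn1_1.2, and 743 and 882 CPM in shEn1_2.1 and shEn1_2.2. It ranked above at least 98.9% of all listed genes in each library. Per kb of its transcript it held between 97.8% and 98.9% of the summed level of *FOS*, *FOSB*, *FOSL1* and *FOSL2*, and it lay 240-fold to 500-fold above *FOS* in the same library (at least 334-fold without shEn1_2.1 and shScr_4). *FOSL2* (FRA2; chromosome 2, 28615315 to 28640184, plus strand), the other Fos protein without a strong activation domain, held 0.759% to 1.8% of the family. *FOS* itself (chromosome 14, 75745529 to 75748933, plus strand) held 0.198% to 0.412% (at most 0.292% without shEn1_2.1 and shScr_4), and *FOSB* 0.0121% to 0.286%. This order held in all 8 libraries for *FOSL1* and *FOSL2*, while *FOS* and *FOSB* changed places in 1 of them, shScr_1. The libraries are bulk RNA, so fewer cells with a transcript and less of it per cell cannot be told apart.

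The Jun family was shared between *JUN* and *JUNB*. *JUN* (chromosome 1, 59242517 to 59249720, minus strand), the main activating partner in AP-1, had 203, 94.5, 88.1 and 164 CPM in shScr_1 to shScr_4, and 135, 206, 176 and 132 CPM in shEn1_1.1, shEn1_1.2, shEn1_2.1 and shEn1_2.2. Per kb it made up 35.4% to 65% of the summed level of *JUN*, *JUNB* and *JUND*, and at most 56.2% without shEn1_2.1 and shScr_4. *JUNB* (chromosome 19, 12902300 to 12904129, plus strand), a weaker activator that competes with Jun for partners, made up 25% to 45.7% (at least 29.4% without them), and *JUND* 7.33% to 22.1%. The ratio of *JUN* to *JUNB* per kb ran from 0.832 to 2.6, or to 1.74 without them, so their order changed between libraries. *FOSL1* exceeded *JUN* per kb 8.11-fold to 15-fold in every library, and at least 9.14-fold without them.

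**Figure D1:**
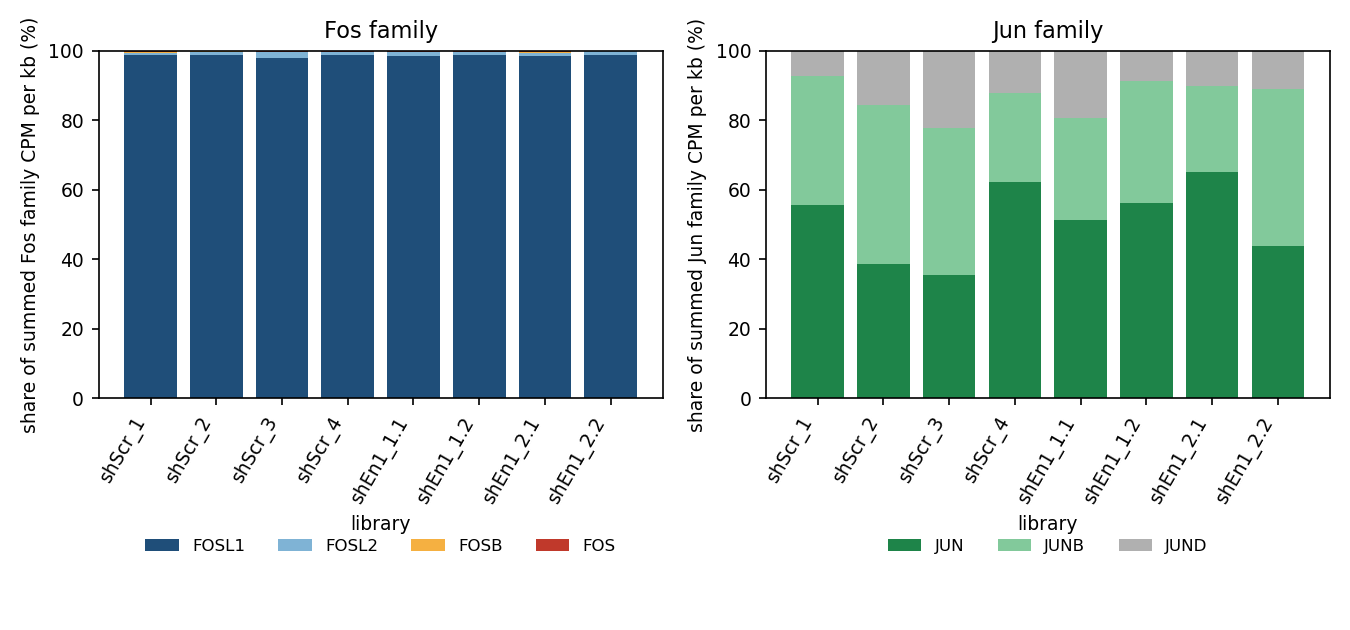
Share (%) of each gene in the summed CPM per kb of transcript of its family, by library, with the Fos family on the left and the Jun family on the right. FOSL1 fills 97.8% to 98.9% of every Fos bar, whereas the JUN part of the Jun bars runs from 35.4% to 65%.

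Over all 10 genes the levels per kb, averaged over the 8 libraries, fell into 3 ranges. *FOSL1* was alone at the top with 467 CPM per kb (287 to 637). *JUN* (46.0, from 27.1 to 63.2), *JUNB* (31.8, from 20.8 to 41.6), *KLF6* (16.0, from 10.75 to 23.3), *EGR1* (9.60, from 5.545 to 18.6, or to 9.13 without shEn1_2.1 and shScr_4) and *FOSL2* (4.62, from 3.83 to 5.59) followed in CPM per kb, and the ranges of neighbours in this order overlapped. *DUSP1* (1.60, from 1.21 to 2.32), *FOS* (1.2, from 0.859 to 1.82), *IER3* (0.88, from 0.329 to 1.499) and *ATF3* (0.69, from 0.333 to 1.21) were lowest in CPM per kb, again with overlapping neighbours. Over all 8 libraries, the gaps below *FOSL1* and below *FOSL2* were the places where neighbouring ranges did not overlap. Without shEn1_2.1 and shScr_4 more neighbours came apart, so the 3 ranges rest in part on these libraries. *EGR1* then reached at most 9.13 CPM per kb, under the 10.75 of *KLF6* in shScr_2, its lowest library. The range of *KLF6* then lay wholly below that of *JUNB*.

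**Figure D2:**
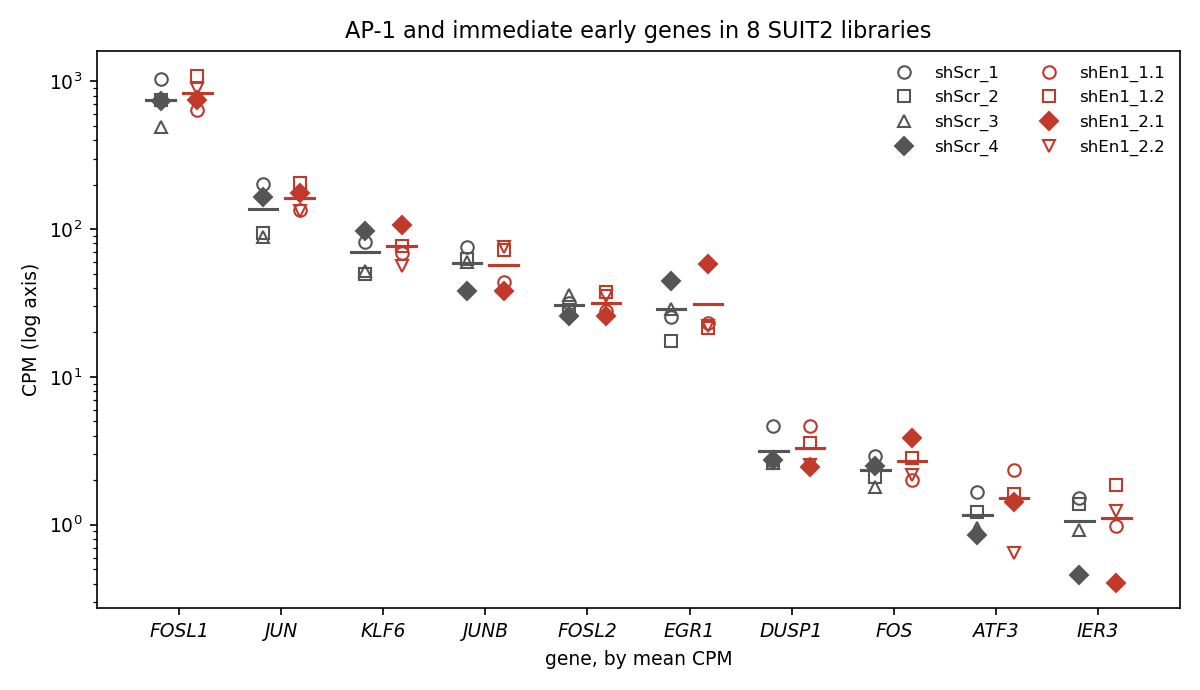
CPM (log axis) of the 10 genes in each of the 8 libraries, with shScr in grey, shEn1 in red, a bar at each arm's mean (n = 4) and filled diamonds for shScr_4 and shEn1_2.1. The red and grey points overlap for every gene, and the filled diamonds are the highest points for EGR1 and KLF6 and the lowest for JUNB, FOSL2 and IER3.

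The comparison sets the libraries labelled shEn1 against those labelled shScr, and since *EN1* was not lower in 3 of the former, it does not compare low with high *EN1*. None of the 10 genes passed at an adjusted p of 0.05 (quasi-likelihood test of edgeR, Benjamini-Hochberg adjustment), as did 0% of the 14333 genes tested. At an unadjusted p below 0.05 there were again 0 of the 10, beside 44 genes or 0.307% of all tested (39 genes, and 0 of the 10, by DESeq2). The libraries of both arms overlapped in CPM for all 10, whereas 0.419% of tested genes had arms that did not overlap. Fitted values were higher in shEn1 for 9 of the 10 and lower for 1, *JUNB*, with a median log2 fold change of 0.12 beside -0.0028 over all genes tested, of which 48.9% were higher. This tally shifted with the libraries, to 6 higher and 4 lower without shScr_4 and to 10 and 0 without shScr_1, and the median ran from 0.0473 to 0.294 with 1 library left out. Each gene's difference of mean log2 CPM between arms was smaller than its SD within arms.

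The intervals around these differences did not follow the level alone. *FOSL1* was at 751 ± 227 CPM in shScr and 838 ± 191 CPM in shEn1 (SD, n = 4 each), a log2 fold change of 0.16 with a 95% interval from -0.35 to 0.67. *JUN* had 138 ± 55.6 CPM in shScr and 162 ± 35.4 CPM in shEn1 (log2 fold change 0.24, interval -0.38 to 0.85). *FOSL2* had the narrowest interval, from -0.30 to 0.41 around 0.06, with 30.4 ± 4.14 and 31.6 ± 5.68 CPM. *IER3*, the gene with the fewest counts, had the widest, from -1.10 to 1.24 around 0.07. The largest fitted difference was that of *ATF3*, at 0.37 with an interval from -0.59 to 1.33, and it was 0.08 without shEn1_1.1. That of *FOSL1* was 0.00057 without shScr_3 and 0.36 without shScr_1, that of *JUN* 0.07 and 0.49, and that of *FOS*, 0.22, was 0.00054 without shEn1_2.1. The adjusted p was 1 for each of the 10 (edgeR with Benjamini-Hochberg adjustment), and exact two-sided permutation tests over the 70 assignments of the libraries gave unadjusted p-values between 0.4 (*JUN*) and 1 (*IER3* and *DUSP1*), where 0.0286 is the smallest that 4 against 4 allows.

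**Figure D3:**
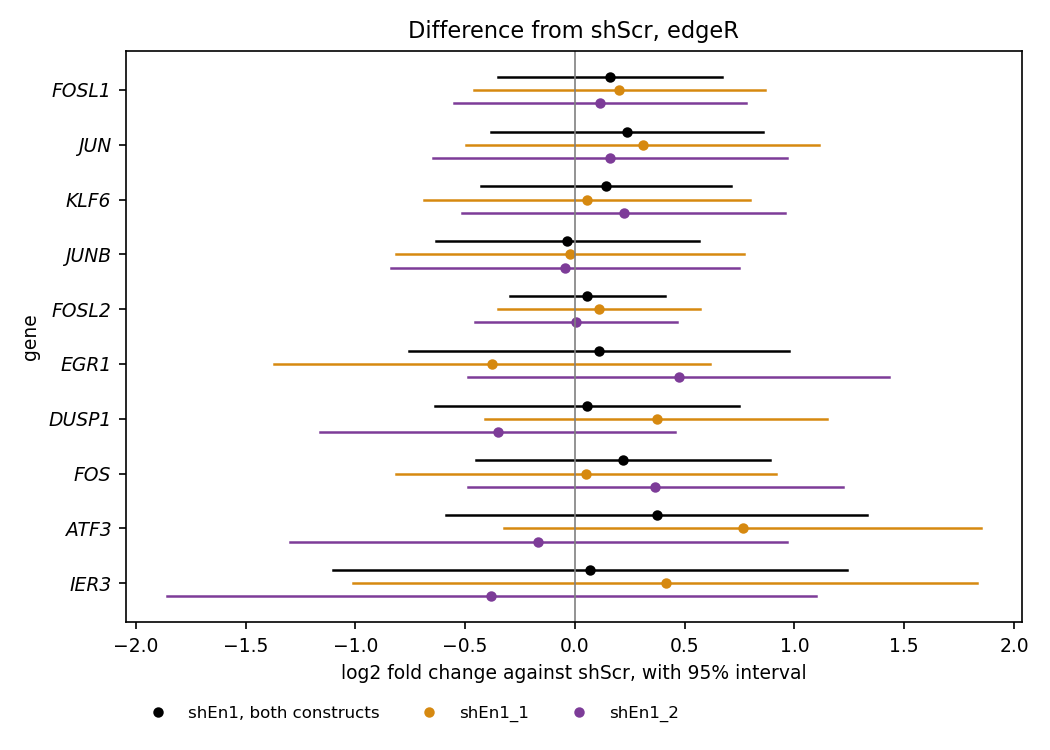
Log2 fold change against shScr with its 95% interval from edgeR for the 10 genes, for both constructs as 1 arm (black) and for shEn1_1 (orange) and shEn1_2 (purple) alone. All 30 intervals span 0, and the constructs point in opposite directions for EGR1, ATF3, IER3 and DUSP1.

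Neither label of a construct gave a call on its own. Against the same 4 shScr libraries, 0 of the 10 passed for shEn1_1 (0% of all tested genes did) and 0 for shEn1_2 (0% of all). At an unadjusted p below 0.05 none of the 10 was among the 94 genes for shEn1_1 or the 43 for shEn1_2. *DUSP1* was fitted 0.37 higher in shEn1_1 (interval -0.41 to 1.15) and 0.35 lower in shEn1_2 on the log2 scale (a value of -0.35, interval -1.16 to 0.46), and *ATF3* stood at 0.77 and -0.17 and *EGR1* at -0.38 and 0.47. The difference between constructs, shEn1_2 minus shEn1_1, was -0.72 for *DUSP1*, -0.93 for *ATF3* and 0.85 for *EGR1* (adjusted p = 1 for each, edgeR with Benjamini-Hochberg adjustment). Each construct has 2 libraries, 1 of which, shEn1_2.1, stood apart.

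The genes varied between single libraries whatever their label. For 8 of the 10 the highest library was over 2-fold above the lowest, which 35.8% of all tested genes also reached. The median ratio of highest to lowest was 2.19 for the 10 genes and 1.69 for all tested genes. *IER3* (4.56), *ATF3* (3.65) and *EGR1* (3.36) had the widest ratios and *FOSL2* (1.46) the narrowest. *IER3* and *ATF3* also had the fewest counts (16 to 63 and 21 to 84 per library), and counting error was not removed from these ratios. Without shScr_4 and shEn1_2.1, 4 of the 10 remained above 2-fold, namely *FOSL1* (2.22), *JUN* (2.33), *ATF3* (3.65) and *IER3* (2.02), and the ratio of *EGR1* was 1.65. The share of all tested genes above 2-fold without these libraries is not given here, so the drop cannot be set against that of other genes.

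**Figure D4:**
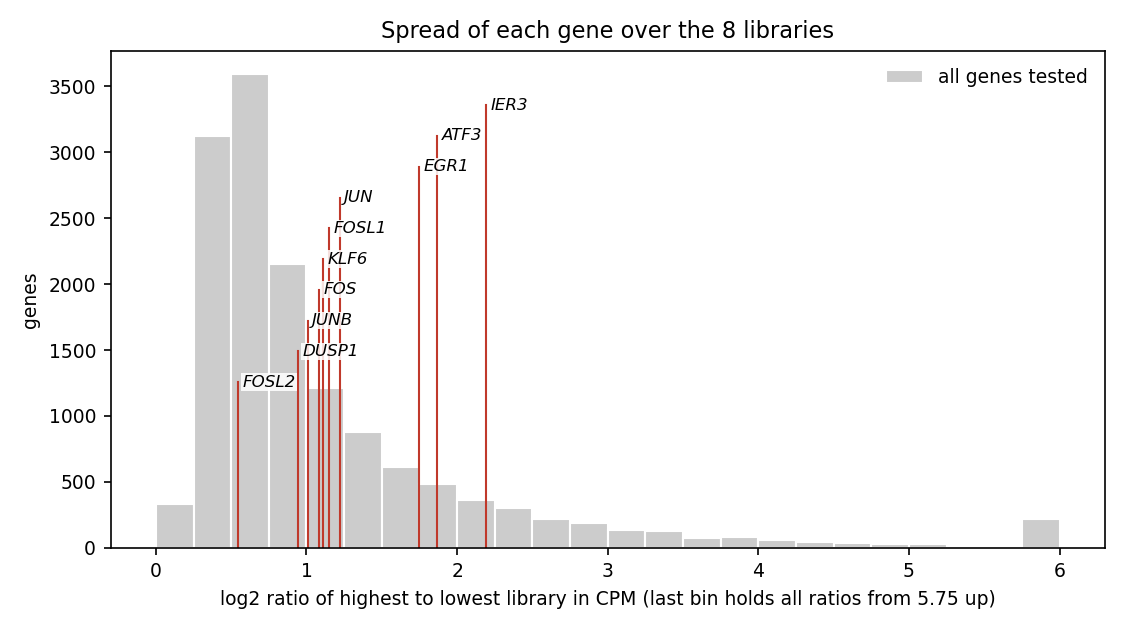
Number of tested genes (vertical axis) by log2 ratio of the highest to the lowest library in CPM, with a red line at the ratio of each of the 10 genes (line heights carry no value). FOSL2 lies in the bulk of all genes, 6 of the genes lie near a ratio of 2, and EGR1, ATF3 and IER3 lie further out.

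*EGR1* and *KLF6* were highest in the 2 libraries that stood apart. *EGR1* (Entrez 1958, chromosome 5, 137801168 to 137804992, plus strand), a zinc finger factor induced through SRF, had 25.5, 17.4, 28.6 and 44.4 CPM in shScr_1 to shScr_4, and 23.2, 21.3, 58.5 and 21.9 CPM in shEn1_1.1, shEn1_1.2, shEn1_2.1 and shEn1_2.2. Both shScr_4 and shEn1_2.1 lay above the other 6 libraries, which spanned 17.4 to 28.6 CPM. *KLF6* (chromosome 10, 3818188 to 3827473, minus strand), a Krüppel-like factor, had 82.3, 49.4, 52.0 and 96.6 CPM in shScr_1 to shScr_4, and 69.1, 76.3, 107 and 56.6 CPM in shEn1_1.1, shEn1_1.2, shEn1_2.1 and shEn1_2.2. Here too shScr_4 and shEn1_2.1 were above the other 6, at most 82.3 CPM, by a smaller margin than for *EGR1*.

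*JUNB*, *FOSL2* and *IER3* were lowest in the same libraries. *JUNB* had 75.7, 62.6, 59.5 and 38.0 CPM in shScr_1 to shScr_4, and 43.6, 72.4, 38.0 and 76.2 CPM in shEn1_1.1, shEn1_1.2, shEn1_2.1 and shEn1_2.2. *FOSL2* had 26 CPM in shScr_4 and 25.7 CPM in shEn1_2.1, against 28.01 to 37.5 CPM in the other 6. *IER3* had 0.454 and 0.406 CPM there, against 0.918 to 1.85 CPM in the others. So 5 of the 10 genes had both libraries outside the range of the other 6, which 38.1% of all tested genes also had, a share near that of the 10. For *JUN*, *FOSL1*, *FOS*, *ATF3* and *DUSP1* the 2 libraries lay within or across the range of the rest.

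Other values moved with these libraries. *EN1* was lowest in both (1.35 CPM in shEn1_2.1 and 2.51 CPM in shScr_4, against at least 4.10 CPM), 3 of 5 epithelial markers were below the other 6 libraries in both (*KRT19* at 321 and 400.3 CPM against 832 to 1648 CPM, *EPCAM* at 241 and 234 CPM against at least 366 CPM, and *CDH1* at 103 and 124 CPM against at least 156 CPM) while *KRT8* and *KRT18* were not, and their TMM factors were 1.07 and 1.06 against at most 1. Their part in the levels of *EGR1*, *KLF6*, *JUNB*, *FOSL2* and *IER3* was not tested. With both libraries left out, the log2 fold change of *EGR1* between shEn1 and shScr turned from 0.11 to -0.11. Those of *KLF6* (0.14), *FOSL2* (0.07), *IER3* (0.09) and *JUNB* (-0.04) kept their sign, and 0 of the 10 genes passed the test.

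**Figure D5:**
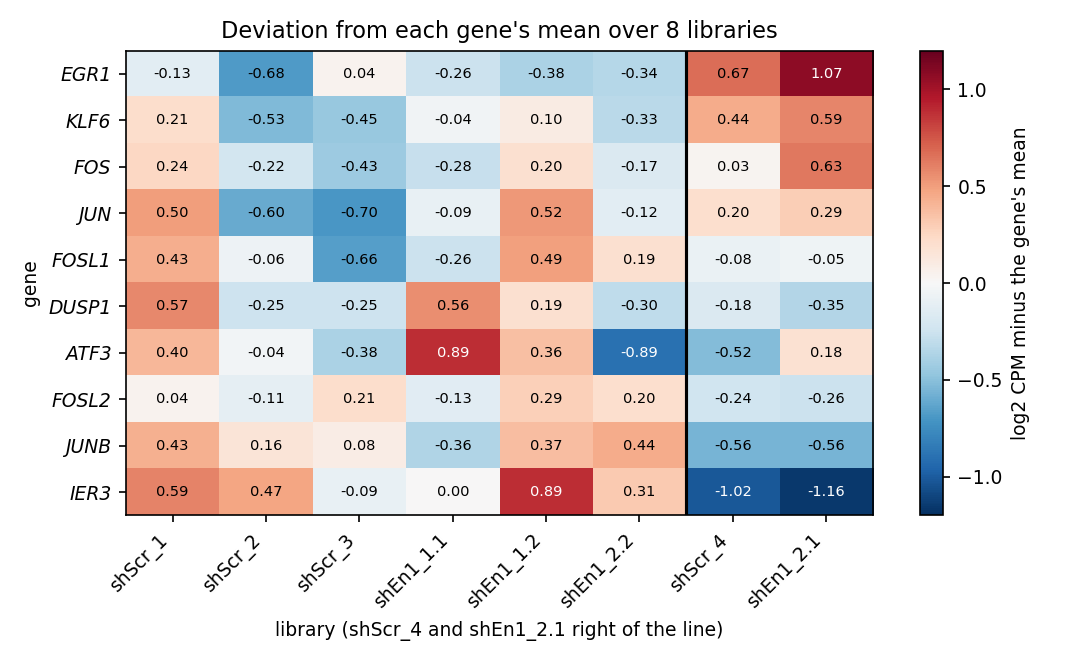
Log2 CPM minus each gene's mean over the 8 libraries (colour and printed value) for the 10 genes, with shScr_4 and shEn1_2.1 to the right of the line. EGR1 reaches 0.67 and 1.07 in these libraries and IER3 falls to -1.02 and -1.16, whereas FOSL1 lies at -0.08 and -0.05.

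The libraries shScr_3 and shEn1_1.1 also lay together for part of the genes. *FOSL1* was lowest in them, at 489 and 644 CPM against at least 729.7 CPM in the other 6, and *FOS* was at 1.81 and 2.02 CPM against at least 2.104 CPM. These were 2 of the 10 genes, beside 13.9% of all tested genes with both libraries outside the range of the rest.

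The promoters of *EGR1* and *KLF6*, high together in the 2 libraries, of *JUNB*, low in them, and of *DUSP1*, the phosphatase of the pathway, are shown as the 250 bases before the RefSeq start in GRCh38.p14, read 5′ to 3′ on the gene's strand. Capitals mark matches to the CArG box, the site of SRF, or to TGACGTCA, the site of CREB and ATF proteins, both searched on both strands together with TGACTCA, the AP-1 site, and TAATTA, a homeodomain core.
*EGR1*, chr5:138465229-138465478, plus strand: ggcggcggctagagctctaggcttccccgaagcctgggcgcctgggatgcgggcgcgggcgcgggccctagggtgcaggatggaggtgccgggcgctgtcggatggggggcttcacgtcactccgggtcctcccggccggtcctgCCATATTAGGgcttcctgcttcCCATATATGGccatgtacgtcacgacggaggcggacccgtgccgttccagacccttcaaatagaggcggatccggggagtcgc
*KLF6*, chr10:3785210-3785459, minus strand: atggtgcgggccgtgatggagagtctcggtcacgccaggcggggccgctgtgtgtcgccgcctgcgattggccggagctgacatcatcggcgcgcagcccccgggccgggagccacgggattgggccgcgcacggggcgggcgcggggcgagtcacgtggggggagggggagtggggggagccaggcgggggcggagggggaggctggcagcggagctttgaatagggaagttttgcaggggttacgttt
*JUNB*, chr19:12791236-12791485, plus strand: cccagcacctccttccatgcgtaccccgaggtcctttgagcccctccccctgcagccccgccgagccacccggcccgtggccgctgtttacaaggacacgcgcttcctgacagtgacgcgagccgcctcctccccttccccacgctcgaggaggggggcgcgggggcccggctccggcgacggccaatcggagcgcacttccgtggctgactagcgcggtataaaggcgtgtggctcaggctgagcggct
*DUSP1*, chr5:172771196-172771445, minus strand: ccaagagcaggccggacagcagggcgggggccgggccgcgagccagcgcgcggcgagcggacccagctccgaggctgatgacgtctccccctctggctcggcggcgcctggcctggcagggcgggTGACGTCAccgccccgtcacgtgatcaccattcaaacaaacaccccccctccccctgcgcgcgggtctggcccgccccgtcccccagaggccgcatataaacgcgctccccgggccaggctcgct

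*EGR1* has CArG boxes from -105 to -96 and from -83 to -74 relative to its start, and *DUSP1* has 1 TGACGTCA from -125 to -118; these matches do not overlap. The letters of *KLF6* and *JUNB* hold none of the 4 motifs in this window. Promoters were matched for 8 of the 10 genes in 9 windows (2 for *ATF3*), and none were matched for *FOSL1* and *IER3*. Of all 35116 windows of the same length, 1.16% hold a CArG box, 1.65% TGACGTCA, 4.2% TGACTCA and 4.35% TAATTA, and of the 9 windows 1, 1, 0 and 0 do. A match is a description of the letters, and binding was not measured here.

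*DUSP1*, *FOS*, *ATF3* and *IER3* were the lowest of the 10 genes and rest on 16 to 165 counts per library. *DUSP1* (chromosome 5, 172195099 to 172198198, minus strand) had 4.67, 2.62, 2.61 and 2.75 CPM in shScr_1 to shScr_4, and 4.62, 3.56, 2.44 and 2.52 CPM in shEn1_1.1, shEn1_1.2, shEn1_2.1 and shEn1_2.2. It was high in shScr_1 and shEn1_1.1, 1 library of each arm, and the arm means were 3.16 ± 1.01 CPM in shScr and 3.29 ± 1.03 CPM in shEn1 (SD, n = 4 each). The log2 fold change was 0.06 with an interval from -0.64 to 0.75. Leaving out shEn1_1.1 turned it to -0.15 and leaving out shScr_1 raised it to 0.30.

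*FOS* had 2.92, 2.104, 1.81 and 2.51 CPM in shScr_1 to shScr_4, and 2.02, 2.83, 3.84 and 2.18 CPM in shEn1_1.1, shEn1_1.2, shEn1_2.1 and shEn1_2.2. Its highest library, shEn1_2.1, held 151 counts (exact 95% Poisson interval 3.25 to 4.5 CPM) and its lowest, shScr_3, 63 counts (1.39 to 2.31 CPM). *ATF3* (chromosome 1, 212738676 to 212794119, plus strand), a repressing partner of Jun proteins induced by stress, had 1.66, 1.21, 0.947 and 0.854 CPM in shScr_1 to shScr_4, and 2.35, 1.62, 1.42 and 0.645 CPM in shEn1_1.1, shEn1_1.2, shEn1_2.1 and shEn1_2.2. Its extremes were both libraries labelled shEn1, 84 counts in shEn1_1.1 (1.88 to 2.91 CPM) and 21 counts in shEn1_2.2 (0.399 to 0.986 CPM). For *FOS* and *ATF3* the intervals of the highest and lowest library do not overlap; they cover counting error only.

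*IER3* (chromosome 6, 30710976 to 30712325, minus strand), a short-lived protein that modulates survival and ERK signalling, had 1.51, 1.38, 0.918 and 0.454 CPM in shScr_1 to shScr_4, and 0.980, 1.85, 0.406 and 1.23 CPM in shEn1_1.1, shEn1_1.2, shEn1_2.1 and shEn1_2.2. These rest on 16 to 63 counts per library, with an exact 95% Poisson interval of 0.232 to 0.66 CPM for the lowest library and 1.42 to 2.37 CPM for the highest. The gene lies in the MHC region, and its surroundings had few counts in these tables. Of the 18 protein-coding genes within 200 kb, 16 had under 100 counts in every library. Among them were the tubulin gene *TUBB* with 1 to 15 counts and the epithelial receptor *DDR1* with 4 to 18. The median over all tested genes was 818 counts, but these had passed the filter on low counts, whereas the 18 were not filtered. *TUBB* and *DDR1* were chosen after their values were seen. The level of *IER3* is therefore uncertain, and why its surroundings had few counts was not tested.

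Some genes share their place with others. *JUNB* overlaps *HOOK2* on the other strand, which had 13.4 to 36.9 CPM, and *IER3* overlaps *HCG20* and *IER3-AS1*, both on the other strand. Whether counting used strand is not given in the sources used here, so reads from such overlaps cannot be told apart.

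The other genes of the pathway did not differ between arms by the test either. Of 11 other AP-1 and bZIP partners tested, 0 passed, 5 were fitted higher and 6 lower in shEn1, and the median log2 fold change was -0.05. The widest of them were *BATF*, a lymphocyte AP-1 protein listed at 0 in shScr_1 and at most at 0.728 CPM, *BATF3* from 0.277 to 2.27 CPM, and *FOSB* from 0.294 CPM in shEn1_1.2 to 6.69 CPM in shScr_1. Of 18 other immediate early genes tested (22 listed), 0 passed, with 12 fitted higher and 6 lower and a median of 0.07. Here 14 of the 18 spanned over 2-fold, beside 35.8% of all tested genes. The widest were the nuclear receptor *NR4A1* (0.369 to 3.74 CPM), *EGR4* (0.184 to 1.36 CPM) and *CCN2*, a matricellular target of YAP and SRF (18.5 to 112 CPM). *CCN2* was highest in shEn1_2.1 and next highest in shScr_4 (73.0 CPM), the order that *EGR1* had, and had at most 59.6 CPM in the other 6. Of the 18, 3 had both libraries above the other 6 and 3 below, beside 38.1% of all tested genes on either side. *EGR2*, *EGR3*, *NR4A3* and *ARC*, all classic immediate early genes, had at most 0.559 CPM in every library and were not tested.

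The genes that act upstream varied less. There were 17 inducing kinases and factors. They were ERK, JNK and p38 kinases, *MAP2K1*, *MAP2K2*, *RPS6KA1*, *RPS6KA3*, *RPS6KA5*, SRF, the ELK factors, MRTFs and CREB1. Of these 0 passed and 0 spanned over 2-fold, beside 35.8% of all tested genes, with 11 fitted higher, 6 lower and a median of 0.03. All had at least 12.7 CPM (*MAPK8* in shScr_3), whereas several wide genes of the other lists were near the floor. The part of level in this contrast was not tested. The widest were *MAPK3*, which encodes ERK1 (25.97 to 49.9 CPM), *RPS6KA5* (19.6 to 35.7 CPM) and *ELK3* (46.8 to 78.1 CPM). Of 8 other MAP kinase phosphatases tested, 0 passed and 6 spanned over 2-fold, with 6 fitted higher, 2 lower and a median of 0.06. *DUSP5*, an ERK phosphatase, ran from 46.7 CPM in shScr_3 to 139 CPM in shScr_1, *DUSP10* from 1.07 to 4.82 CPM and *DUSP8* from 0.516 to 1.76 CPM. Per kb *DUSP5* (31.9 CPM per kb), *DUSP4* (18.1) and *DUSP6* (14.7) stood above *DUSP1* (1.60) on average, *DUSP4* and *DUSP6* being chosen after their values were seen.

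Of 12 AP-1 target genes tested (16 listed), 0 passed, with 9 fitted higher, 3 lower and a median of 0.09. *MMP1*, an interstitial collagenase, had 344 and 383 CPM in shScr_4 and shEn1_2.1 and 2555 to 4964 CPM in the other 6, so it was low where *EGR1* was high. Other targets went the other way, with *HBEGF* at 49.7 and 61.7 CPM against at most 33.0 CPM, and *PLAUR* at 81.4 and 87.8 CPM against at most 58.5 CPM. Of the 12, 2 had both libraries above the other 6 and 4 below, beside 38.1% of all tested genes on either side. *CXCL8*, a neutrophil chemokine, was low throughout (0.0614 to 1.23 CPM). Of 5 heat shock genes tested, 0 passed and 0 spanned over 2-fold, the widest being *HSPB1* (165 to 281 CPM), *HSPH1* (218 to 347 CPM) and *HSP90AA1* (3260 to 4950 CPM), with a median of -0.0045. *HSPA1A* and *HSPA1B*, near-identical copies on chromosome 6 (from 31783320 and 31795515), had at most 0.127 CPM and did not pass the filter. Whether reads shared between them were lost, or whether their low level goes with the few counts around *IER3*, was not tested.

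Epithelial markers were expressed in every library. The summed level of 5 epithelial markers (*EPCAM*, *KRT8*, *KRT18*, *KRT19* and *CDH1*) was 11450 to 14940 CPM in shScr and 11110 to 17630 CPM in shEn1, with 3 fitted higher, 2 lower and 0 passing, and *EPCAM* (234 to 589 CPM), *CDH1* (103 to 256 CPM) and *KRT19* the widest. Most of this sum was *KRT8* and *KRT18*, so it does not show the low levels of the other 3 in shScr_4 and shEn1_2.1. The summed level of 10 markers of fibroblasts, leukocytes and endothelium was 10.5 to 32.7 CPM in shScr and 10.2 to 37.7 CPM in shEn1, most of it *CD68* (7.75 to 34.6 CPM), with *COL1A1* at most at 3.99 CPM and *VWF* at most at 0.412 CPM. *COL3A1*, *DCN*, *PTPRC*, *CD3E* and *CDH5* were at 0 counts in every library. None of the 3 tested passed.

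For the 3 members of widest range, the genes whose centred log2 CPM profile over the 8 libraries lay nearest were as follows. Nearest to *IER3* were *SLC15A1* (root mean square difference 0.11), *FHL1* (0.12) and *OTUB2* (0.14). *SLC15A1*, a peptide transporter, had 36.4 CPM in shScr_4 and 34.0 CPM in shEn1_2.1 against 74.0 to 123 CPM in the other 6, a pattern that the choice by nearest profile fixes. Nearest to *EGR1* were *ARHGAP33* (0.15), *XKR8* (0.15) and *PLAGL1* (0.16). By the same choice these were also highest in these libraries (*PLAGL1* at 19.6 and 19.5 CPM against at most 11.0 CPM). Nearest to *ATF3* were *RASAL2-AS1* (0.21), *ANXA1* (0.27) and *PNPLA7* (0.29), at larger distances. *ANXA1* shared with *ATF3* a maximum in shEn1_1.1 (261 CPM), which the choice by nearest profile also favours. Among the 10 members themselves, *FOS* and *KLF6* were nearest (0.21), *JUN* and *KLF6* next (0.25), and *EGR1* and *IER3* farthest apart (1.21).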

How the data were processed

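RNA was collected from SUIT2 cells and sequenced as paired-end libraries, 8 in all, grouped by their titles. The values the authors deposited are unnormalized whole-number counts per NCBI gene number, made with HISAT2 and featureCounts per the submitters' processing notes, with hg19 named for human reads in the study's methods and mm9 in the notes. Versions, annotation and strand setting are not given in the sources used here. Of 25702 genes, 23696 had a symbol in the RefSeq table of GRCh38.p14, used for names and promoter sequences; places and transcript lengths came from GENCODE on GRCh37, the build of hg19. The other genes held at most 0.257% of a library.

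Counts were filtered (filterByExpr, minimum count 10, 14333 genes), scaled (TMM) and tested in R 4.3.3 by edgeR 4.0.16 (robust glmQLFit and glmQLFTest), with Benjamini-Hochberg adjusted p below 0.05. Profiles used log2 CPM with a prior count of 2, and single-gene permutation tests log2 of CPM plus 0.05. Alternatives were DESeq2 1.42.0, limma-voom (limma 3.58.1), other scaling and filters, blocks, and leaving out libraries. Library totals were 33423590 to 37810604 counts. Replicates with the same number were checked for pairing (correlation of deviations -0.38 to 0.32) and treated as unpaired.

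The genes described, the gene lists and the alternatives were chosen with earlier results of these data known. Named genes were the 10 members, *EN1*, the 3 of widest ratio between libraries in each list, and the 3 nearest profiles of the 3 widest members. All other genes named, such as *JUND*, *HOOK2* and list genes with few or no counts, were chosen after their values were seen. One item that the rule names is not reported here.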

Additional observations from a re-analysis of the deposited data

Results flagged for a closer look

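In groups of 4 libraries, a library was marked when its gap to the nearest other library was a large part of the range of the group (Dixon's criterion at 95%), and 28 such groups were examined, of which about 1.4 would be marked by chance. *EGR1* in shEn1_2.1, at 58.5 CPM, stood far above the other 3 libraries labelled shEn1, which had 21.3 to 23.2 CPM. *DUSP1* in shScr_1, at 4.67 CPM, stood above the other 3 libraries labelled shScr, which had 2.61 to 2.75 CPM, while shEn1_1.1 had 4.62 CPM. The TMM factor of shEn1_2.1 was 1.07, against 0.974 to 0.981 in the other 3 libraries labelled shEn1. No difference between the constructs passed the test for any of the 10 genes.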

How the results depend on the processing

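Under the alternative scalings, tests, filters, blocks and left-out libraries tried, 0 of the 10 genes passed at an adjusted p below 0.05 (lowest 0.999), and their median log2 fold change was between 0.0473 and 0.294 with 1 library left out. Over all tested genes, 0 passed in the reported test, 44 at an unadjusted p below 0.05, 2 with DESeq2 (*VAMP7* and a gene without a symbol), 1 with the replicate block and 1 without shScr_4 and shEn1_2.1, and 0 to 1 with 1 library left out (1 without shScr_4). *VAMP7* was that gene each time. It was named after its values were seen, lies in a region that X and Y share, and the cause was not tested. Of the 10 genes, 4 in place of 8 spanned over 2-fold without shScr_4 and shEn1_2.1, and 6 to 8 did with 1 library left out. Scaling by DESeq2's size factors or by library size only gave 7, and leaving out shScr_3 and shEn1_1.1 gave 6. No share over all tested genes stands beside these counts.

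Directions were not stable. The sign of the log2 fold change turned in 8 of 100 values from other settings and in 15 of 80 with 1 library left out. It was -0.0031 for *IER3* with limma-voom. With the replicate block it was -0.12 for *FOSL1*, -0.51 for *IER3* and -0.11 for *DUSP1*, with 6 of the 10 genes higher, 4 lower and a median of 0.0475. Same-numbered libraries did not deviate together in every pair, so the numbers are not taken as a pairing, and the block changed no other direction or call of the 10 genes. Without shScr_4 and shEn1_2.1 it was -0.11 for *EGR1*. Without shScr_3 and shEn1_1.1 it was 0.0819 for *JUNB*, -0.0124 for *ATF3* and -0.24 for *DUSP1*. With 1 library left out, it ran from -0.15 to 0.30 for *DUSP1*, from -0.39 to 0.39 for *EGR1*, from -0.0363 to 0.14 for *FOSL2*, from -0.29 to 0.34 for *IER3*, from -0.20 to 0.11 for *JUNB* and from -0.0571 to 0.34 for *KLF6*. The planned block split at a gap in the dataset numbers of the table headers was not run, since these numbers have no gap. A block on the first and last 4 of them, and the median without *IER3*, were added after seeing the data and turned no call. The fewest counts behind a value were 16 (*IER3*) and 21 (*ATF3*), and these genes had the widest intervals (-1.10 to 1.24 and -0.59 to 1.33). Interval widths did not follow depth alone, *EGR1* (-0.75 to 0.97) being wider than *FOS* (-0.45 to 0.89).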
